A study of Homo sapiens with 12 samples.

Results

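The neutrophil-attracting CXC chemokines are the 6 genes CXCL8, CXCL1, CXCL2, CXCL3, CXCL5 and CXCL6, taken by gene name from the 58735 genes listed in NCM460 cells, a human cell line labelled as normal colonic epithelium. The 12 RNA-seq libraries, all labelled WT, fall into 4 groups of 3. Cells of the group labelled medium were untreated, those labelled TNFa received TNF-α, those labelled Bufotenidine received TNF-α together with bufotenidine, a quaternary tryptamine that the study calls 5-OH-TMT, and those labelled si received TNF-α after HTRA2 was knocked down by siRNA. The dose and duration of TNF-α for these libraries were not given in the sources used here. The labels name no control siRNA in the TNFa group, and they do not say whether 1 siRNA or several were used, so transfection and HTRA2 loss cannot be told apart in the si group. Nothing in the labels says that the 3 libraries of a group came from separate cultures, so p-values measure the spread between these libraries, which may be technical.

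Chemokines are small secreted proteins that guide leukocytes along a gradient. The members described here belong to the ELR-positive CXC chemokines, which bind CXCR2 on neutrophils, and CXCL8 (interleukin 8) and CXCL6 also bind CXCR1. Their genes are textbook targets of NF-κB, the transcription factor that TNF-α activates, and their mRNAs carry AU-rich elements that mark them for rapid decay. In the inflamed gut, epithelial cells are a source of these chemokines, which draw neutrophils into the mucosa.

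All 6 genes lie in a cluster on chromosome 4 of GRCh38. The cluster spans 358788 bases from the start of CXCL8 to the end of CXCL2, and GENCODE 29 places 16 genes inside it, of which 9 are protein-coding. CXCL8 (ENSG00000169429) occupies 73740506 to 73743716 on the plus strand. CXCL6 (ENSG00000124875) occupies 73836497 to 73849064 and CXCL1 (ENSG00000163739) 73869393 to 73871242, both on the plus strand. CXCL5 (ENSG00000163735) occupies 73995642 to 73998779, CXCL3 (ENSG00000163734) 74036589 to 74038807 and CXCL2 (ENSG00000081041) 74097035 to 74099293, all on the minus strand.

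The promoters are shown because NF-κB binds sites of this kind. The 250 bases before the RefSeq start (GRCh38.p14) were searched on both strands for the kB-like pattern GGNNTTTCC. They were also searched for TGANTCA, the site of AP-1 factors. The third pattern was the TATA box, spelled TATAAA, and no matches overlapped. A promoter entry was found for all 6 members. Each line below is 30 bases of reference sequence, 5′ to 3′ on the gene's own strand, with the match in capitals.
CXCL8 kB-like, chr4:73740468-73740497 (+): tgcaaatcgtGGAATTTCCtctgacataat
CXCL8 AP-1, chr4:73740422-73740451 (+): ggaagtgtgaTGACTCAggtttgccctgag
CXCL1 kB-like, chr4:73869305-73869334 (+): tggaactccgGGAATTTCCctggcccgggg
CXCL1 kB-like, chr4:73869330-73869359 (+): cgggggctccGGGCTTTCCagccccaacca
CXCL2 kB-like, chr4:74099253-74099282 (-): tggagctccgGGAATTTCCctggcccggga
CXCL2 kB-like, chr4:74099229-74099258 (-): ccgggactccGGGCTTTCCagccccaacca
CXCL3 kB-like, chr4:74038748-74038777 (-): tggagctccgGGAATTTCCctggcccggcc
CXCL3 kB-like, chr4:74038723-74038752 (-): cggccgctccGGGCTTTCCagtctcaacca
CXCL5 kB-like, chr4:73998748-73998777 (-): atgagttcagGGAATTTCCccagcatccca
CXCL6 kB-like, chr4:73836579-73836608 (+): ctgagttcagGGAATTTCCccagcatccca

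The same 9 letters, GGAATTTCC, occurred in all 6 promoters. They were read from the matches of the members themselves, so their share of 0.413% among the 35116 promoters of this length is a description. The promoters are also related copies, with an identity of 85.3% between CXCL5 and CXCL6 and of 81.4% between CXCL1 and CXCL3, so the 6 are not independent. The wider pattern GGNNTTTCC matched once in CXCL8, CXCL5 and CXCL6 and 2 times in CXCL1, CXCL2 and CXCL3. At least 1 match was present in 5.49% of all promoters and at least 2 in 0.231%. The AP-1 pattern matched in CXCL8 and in none of the other members, with a share of 6.57% among all promoters, and TATAAA likewise matched in CXCL8 alone among the members, with a share of 10.7%. The windows of CXCL8 and CXCL1 lie upstream of every GENCODE transcript of those genes. Those of CXCL2, CXCL3, CXCL5 and CXCL6 lie in a non-coding part of an exon of 1 GENCODE transcript that begins further upstream than the RefSeq start. A match is a description of the letters and was not tested for binding.

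**Figure D1:**
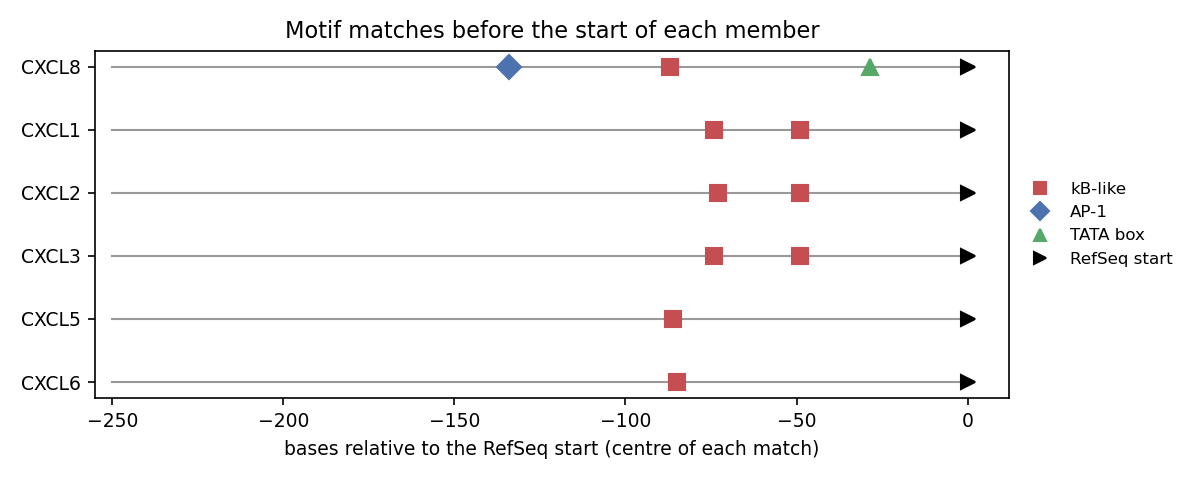
Matches to the kB-like, AP-1 and TATA box patterns (symbols, at their centres) in the 250 bases before the RefSeq start of each member, with the distance to the start in bases on the horizontal axis. CXCL1, CXCL2 and CXCL3 each hold 2 kB-like matches at almost the same distances, whereas the other 3 members hold 1 each, and the AP-1 and TATA box matches are in CXCL8.

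The similarity of the members bears on how far their reads can be told apart. CXCL1, CXCL2 and CXCL3 shared between 90.7% and 94.4% of their coding bases, and CXCL5 and CXCL6 shared 87.4%. CXCL8 was the most distant member, with an identity between 52.1% and 55.8% to the others. Of the distinct 75-base words in the GENCODE transcripts, 7.07% of those of CXCL2, 4.57% of those of CXCL3, 0.245% of those of CXCL1 and 0% of those of CXCL8 also occurred in another gene. The values of CXCL2 and CXCL3 are therefore uncertain to the extent that reads in those stretches were dropped or split.

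Reads on genes, recovered from the FPKM steps, ranged from 31008429 to 37624399 per library. Of the values, 100% came out whole within 0.01 reads, a margin that widened in proportion for the highest read counts. HTRA2, a mitochondrial serine protease and the target of the siRNA, had a mean of 14.5 ± 0.774 FPKM (SD, n = 3) in TNFa and 7.28 ± 0.137 in si, with values of 14.8 ± 2.04 in medium and 15.3 ± 0.363 in Bufotenidine. The log2 change in si against TNFa was -0.98 (SE 0.0869, limma adjusted p = 2.77e-05). Of 9 intestinal epithelial markers, EPCAM, CDH1, KRT8, KRT18 and KRT19 were above 1 FPKM in every group, whereas KRT20, VIL1 and CDX1 were at or near 0 and CDX2 had 0 reads in all 12 libraries. None of 8 leukocyte markers reached a mean of 1 FPKM, their sum ranged from 0.177 to 0.883 per library, and the neutrophil genes FCGR3B and ELANE had 0 reads. The sum of 4 fibroblast markers was 1.001 to 1.46 in the medium, TNFa and Bufotenidine libraries and 2.60 to 3.22 in si, nearly all of it COL1A1, with DCN at 0. The sum of 3 endothelial markers was between 0.492 and 0.597 in medium, between 1.43 and 1.57 in TNFa, between 1.77 and 2.01 in Bufotenidine and between 2.21 and 3.62 in si, most of it CDH5. The endothelial sum was higher in TNFa than in medium and higher again in si, as CXCL8 and CXCL1 were. In Bufotenidine this sum was above every TNFa library, whereas CXCL8 and CXCL1 overlapped between these groups. In that list the group means of PECAM1 stayed between 0.112 and 0.158 FPKM and those of VWF between 0.0573 and 0.0874. The fibroblast sum overlapped between medium and TNFa and was higher in si, and the leukocyte sum was lower in TNFa than in medium. The part of these sums in the chemokine results was not tested. The si library 2 stood apart from the other libraries of its group, as the chi-squared of its reads over all genes, divided by the degrees of freedom, was 31.4 and 40.8 against si libraries 1 and 3, which had 6.87 against each other. Pairs within the other groups had between 7.12 and 24.4. Among them, medium library 2 had 17.0 and 24.4 against medium libraries 1 and 3, which had 9.26 against each other. In bulk RNA, more cells making a transcript and more transcript per cell cannot be told apart.

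FPKM is a read count scaled to gene length and library depth, so levels set side by side between genes depend on the length used. That length was 1296 bases for CXCL1, 1500 for CXCL2 and 2219 for CXCL3. Their transcripts with the longest coding part each had 321 coding bases, with 3′ UTRs of 706, 721 and 673. The order, the ratios and the shares of members rest on these lengths. The ratio of a gene's group means, and the change of a member ratio between groups, do not. The fitted log2 changes depend on length in part, through the 0.1 FPKM added before the logarithm, and most so for low genes. In medium the highest member was CXCL2 with 0.918 ± 0.272 FPKM (SD, n = 3), followed by CXCL1 with 0.791 ± 0.0290 and CXCL8 with 0.693 ± 0.129, and these 3 did not differ beyond their spread. CXCL3 was lower, with 0.254 ± 0.0400. In the other 3 groups the order became CXCL8, CXCL1, CXCL2 and CXCL3. CXCL8 and CXCL1 overlapped in each of these groups and lay above every CXCL2 value, and every CXCL2 value lay above every CXCL3 value.

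With TNF-α, CXCL8 and CXCL1 rose 13.4-fold and 11.2-fold (ratios of means) and CXCL2 by 2.50-fold, and CXCL3 did not pass the test. CXCL8, the main human neutrophil attractant, was at 0.546, 0.754 and 0.781 FPKM in the 3 medium libraries and at 7.55, 8.89 and 11.5 in the 3 TNFa libraries. The lowest TNFa library was far above the highest medium library. The ratio of the means was 13.4, and the log2 change on the scale of FPKM + 0.1 was 3.56 (95% interval 3.10 to 4.02, SE 0.212, adjusted p = 1.07e-06). Of the 18079 genes tested, 0.0332% had a larger log2 change.

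CXCL1, first described as a melanoma growth-stimulating factor and a CXCR2 ligand, was at 0.824, 0.769 and 0.780 FPKM in medium and at 7.36, 7.92 and 11.4 in TNFa. The groups did not overlap, and the coefficient of variation in medium was 3.67%. The ratio of means was 11.2 and the log2 change 3.31 (95% interval 2.98 to 3.64, SE 0.152, adjusted p = 1.55e-07).

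CXCL2, a near-copy of CXCL1 that binds the same receptor, was at 0.712, 1.23 and 0.816 FPKM in medium and at 2.04, 2.01 and 2.84 in TNFa. All TNFa libraries were above all medium libraries, by a smaller margin than for CXCL1. The ratio of means was 2.50 and the log2 change 1.25 (95% interval 0.75 to 1.75, SE 0.230, adjusted p = 0.00762). Fitted to only the medium and TNFa libraries, the same change had an adjusted p of 0.0566.

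CXCL3, the third of the closely related CXCR2 ligands, was at 0.260, 0.211 and 0.290 FPKM in medium and at 0.442, 0.390 and 0.628 in TNFa, which is between 15 and 52 reads per library. The groups did not overlap, but the change did not pass the test across genes (log2 change 0.72, 95% interval 0.25 to 1.18, adjusted p = 0.0966). With so few reads, the pseudocount of 0.1 makes this value smaller than the ratio of the means, which was 1.92.

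Of the 6 members, 4 passed the filter of a mean of 0.1 FPKM, and 3 of these were higher in TNFa at an adjusted p under 0.05. Over all genes tested, 3.22% were higher and 0.885% lower in this comparison. By the threshold the study set for differential expression (2-fold and an unadjusted p of 0.05), the same 3 members were higher, against 1.76% of genes. The exact permutation test of 3 libraries against 3 gave p = 0.1 for each of CXCL8, CXCL1, CXCL2 and CXCL3, the smallest two-sided p it can give.

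**Figure D2:**
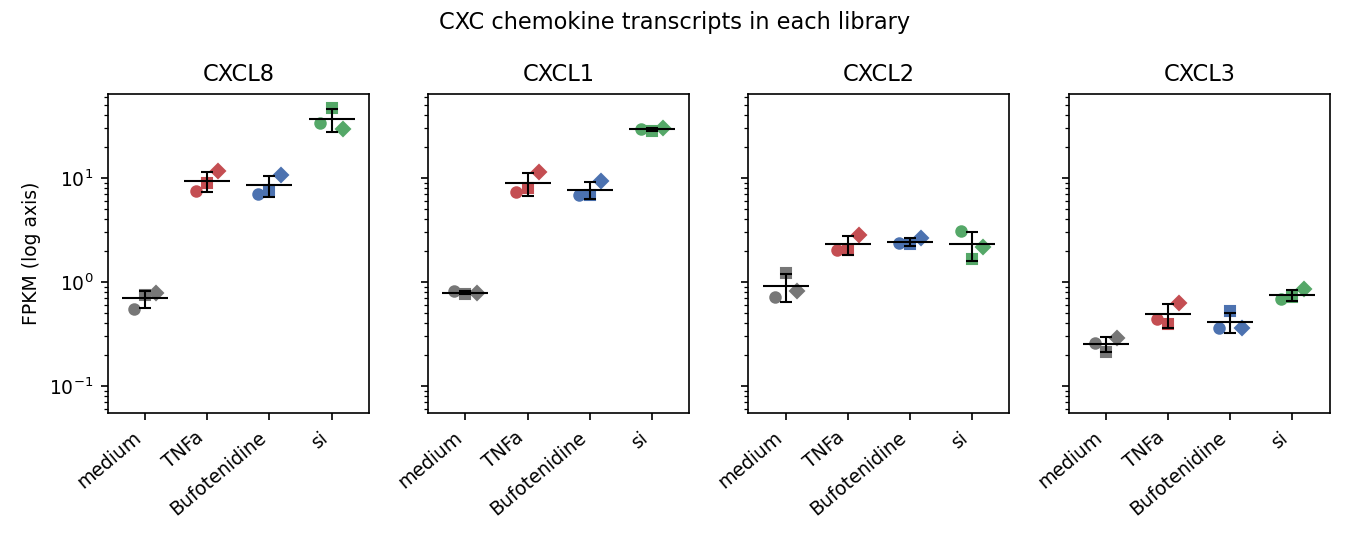
FPKM (log axis) of CXCL8, CXCL1, CXCL2 and CXCL3 in each of the 3 libraries of each group, with circles, squares and diamonds for libraries 1, 2 and 3 and the bar and whiskers for the mean ± SD. The TNFa and Bufotenidine libraries overlap for all 4 genes, and the si libraries are above them for CXCL8, CXCL1 and CXCL3 but not for CXCL2.

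CXCL5 and CXCL6 were at the limit of detection. CXCL5, a neutrophil attractant of epithelial cells, had 0, 4 and 0 reads in the medium libraries, 10, 0 and 8 in TNFa, 0, 0 and 2 in Bufotenidine, and 4, 2 and 4 in si. The groups overlapped, the 34 reads fell in 7 of the 12 libraries, and no difference was detectable at this depth. In a fit without the filter, over all 31951 genes that had any reads, its log2 change was 0.45 (95% interval -0.13 to 1.04, adjusted p = 0.682) in TNFa against medium. CXCL6 had 0 reads in all 12 libraries, which allows up to 3 reads, or 0.0369 to 0.0441 FPKM, per library for counting error alone. In the annotation CXCL6 overlaps the gene PPBPP1. Reads in the overlap may have been dropped in counting, which this floor does not cover. CXCL6 and CXCL5 also carry the GGAATTTCC match, but their reads were too few to tell whether they moved with TNF-α.

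The Bufotenidine libraries, with 5-OH-TMT added to TNF-α, overlapped the TNFa libraries for every member that passed the filter. CXCL8 was at 7.03, 7.66 and 10.7 FPKM in Bufotenidine, against 7.55, 8.89 and 11.5 in TNFa. The fitted fold was 0.908, with a 95% interval of 0.659 to 1.25 (log2 change -0.14, adjusted p = 0.747). Library 3 was the highest of its group in both. Without TNFa library 3 the log2 change was 0.02, the opposite sign.

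CXCL1 was at 6.84, 6.86 and 9.29 FPKM in Bufotenidine, with a fitted fold of 0.871 against TNFa (95% interval 0.692 to 1.10, adjusted p = 0.483). CXCL2 was at 2.35, 2.29 and 2.65 FPKM, inside the range of the TNFa libraries, with a fitted fold of 1.07 (95% interval 0.754 to 1.51, adjusted p = 0.857). CXCL3 was at 0.359, 0.520 and 0.363 FPKM, with a fitted fold of 0.880 (95% interval 0.637 to 1.21, adjusted p = 0.654). The intervals leave room for a fall of CXCL8 to 0.659 of its TNFa level and of CXCL1 to 0.692, so these values do not show that 5-OH-TMT left the transcripts as they were.

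None of the 4 members tested was called by limma in this comparison, none had an unadjusted p under 0.05, and none was called by voom on the recovered reads. Over all genes tested, 0.0332% were higher and 0.00553% lower. That is 7 genes, although 3632 of the 18079 had an unadjusted p under 0.05, and a fit to only these 2 groups called 911 genes and still 0 members. The exact permutation p was 0.6 for CXCL8, 0.5 for CXCL1, 0.6 for CXCL2 and 0.5 for CXCL3.

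With HTRA2 knocked down under TNF-α, CXCL8 and CXCL1 were higher still and CXCL2 was not. CXCL8 was at 33.9, 46.8 and 29.6 FPKM in the si libraries, each above the highest TNFa library at 11.5. The ratio of means was 3.95 and the log2 change against TNFa was 1.96 (95% interval 1.501 to 2.43, SE 0.212, adjusted p = 9.38e-05). CXCL1 was at 29.6, 28.3 and 30.2 FPKM, a spread of 3.21% of the mean. Every si library was above every TNFa library, with a ratio of means of 3.31 and a log2 change of 1.74 (95% interval 1.41 to 2.07, SE 0.152, adjusted p = 2.70e-05).

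CXCL2 was at 3.07, 1.65 and 2.18 FPKM in si, and these values lay on both sides of the TNFa libraries at 2.04, 2.01 and 2.84. The fitted fold was 0.983, with a 95% interval of 0.694 to 1.39 (adjusted p = 0.960). An increase of the size seen for CXCL1 lies outside the interval of CXCL2. CXCL3 was at 0.687, 0.712 and 0.853 FPKM, above all TNFa libraries, but did not pass the test across genes (log2 change 0.55, 95% interval 0.09 to 1.02, adjusted p = 0.0986). Library 2 of si, which stood apart from libraries 1 and 3, held the highest CXCL8 and the lowest CXCL2 of the group. Without it the log2 change against TNFa was 1.78 for CXCL8 (adjusted p = 0.000328), 1.76 for CXCL1 (adjusted p = 0.000122), 0.18 for CXCL2 (adjusted p = 0.640), with the opposite sign, and 0.58 for CXCL3 (adjusted p = 0.135).

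Of the 4 members tested, 2 were therefore higher in si than in TNFa, against 9.35% of all genes higher and 8.08% lower. The same 2 passed the fold and unadjusted p of the study, against 3.08% of genes. The exact permutation p was 0.1, the smallest possible, for CXCL8, CXCL1 and CXCL3, and 1 for CXCL2.

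The difference between the changes in the 2 treated groups was tested by comparing si with Bufotenidine directly. CXCL8 was higher in si by a log2 change of 2.10 (95% interval 1.64 to 2.57, adjusted p = 0.000125) and CXCL1 by 1.94 (95% interval 1.61 to 2.27, adjusted p = 3.15e-05). CXCL3 was higher by 0.74 (95% interval 0.27 to 1.20, adjusted p = 0.0376), a call that was lost in a fit to these 2 groups only (adjusted p = 0.0588), with the replicate number as a block (adjusted p = 0.0582) and when any 1 of 5 of the 6 libraries was left out. CXCL2 had a log2 change of -0.12 (95% interval -0.62 to 0.38, adjusted p = 0.781). In all, 3 of the 4 members tested were higher, against 7.85% of all genes higher and 7.43% lower.

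**Figure D3:**
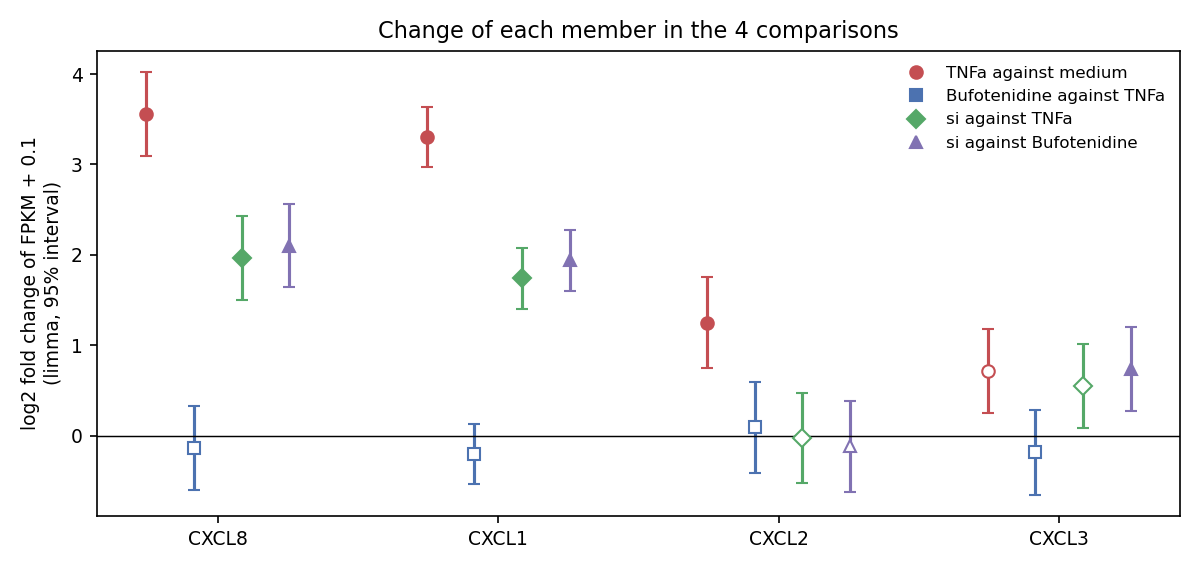
Log2 fold change of FPKM + 0.1 with its 95% interval from limma for 4 members (horizontal axis) in 4 comparisons (symbols), filled where the adjusted p was under 0.05. CXCL8 and CXCL1 stand at 3.56 and 3.31 in TNFa against medium and at 1.96 and 1.74 in si against TNFa, whereas CXCL2 is at 1.25 and -0.03, and all intervals for Bufotenidine against TNFa cross 0.

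Ratios between members within a library do not depend on the library's scaling. These ratios were chosen after the values were seen. CXCL8 over CXCL1 was 0.662, 0.980 and 1.002 in medium, 1.03, 1.12 and 1.01 in TNFa, 1.03, 1.12 and 1.15 in Bufotenidine, and 1.15, 1.65 and 0.981 in si. Every medium library was below every TNFa library (exact permutation p = 0.1, the smallest possible), by a mean of 0.28 on the log2 scale, whereas TNFa, Bufotenidine and si overlapped. CXCL1 over CXCL2 was 1.16, 0.628 and 0.955 in medium, 3.62, 3.94 and 3.996 in TNFa, 2.91, 3.00 and 3.51 in Bufotenidine, and 9.65, 17.2 and 13.9 in si. No pair of these groups overlapped, and the exact permutation test gave p = 0.1, the smallest possible, for each of the 4 comparisons. This ratio was lower in every Bufotenidine library than in every TNFa library, but the other ratios overlapped between these groups. CXCL8 over CXCL2 was 3.71, 4.42 and 4.05 in TNFa and 2.99, 3.35 and 4.04 in Bufotenidine (exact permutation p = 0.2). CXCL1 over CXCL3 was between 2.69 and 3.65 in medium, between 16.6 and 20.3 in TNFa, between 13.2 and 25.6 in Bufotenidine and between 35.4 and 43.1 in si. The exact permutation test of this last ratio gave p = 0.1 for TNFa against medium and for si against TNFa, and p = 1 for Bufotenidine against TNFa.

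**Figure D4:**
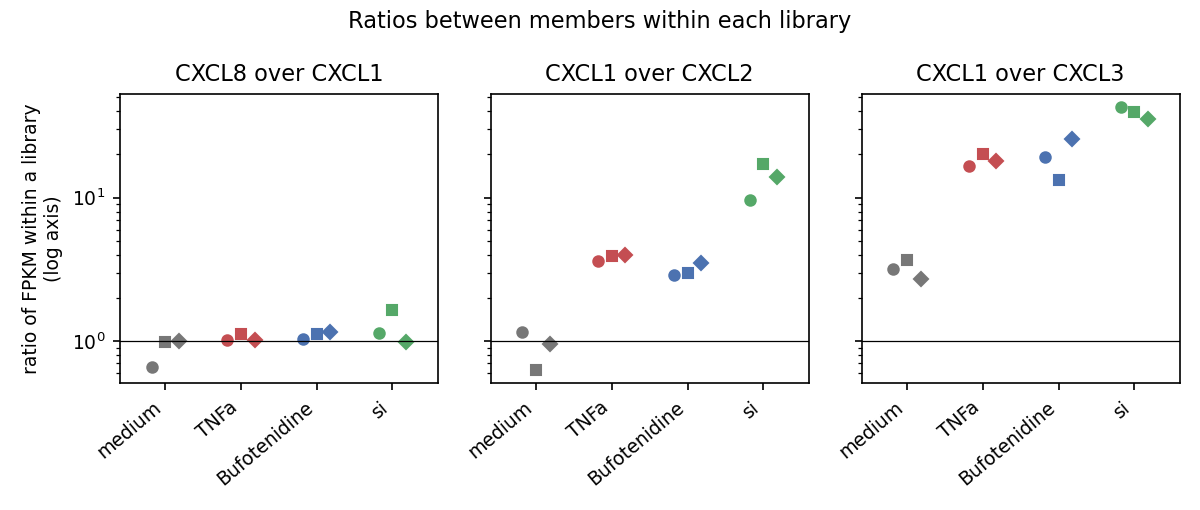
Ratio of the FPKM of 2 members within each library (log axis) by group, with circles, squares and diamonds for libraries 1, 2 and 3 and a line at a ratio of 1. CXCL8 over CXCL1 lies between 0.662 and 1.65, whereas CXCL1 over CXCL2 and CXCL1 over CXCL3 are higher in every TNFa library than in every medium library and higher again in every si library.

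The make-up of the group of chemokines changed accordingly. The summed FPKM of the 6 members was 2.67 ± 0.333 (SD, n = 3) in medium, 21.1 ± 4.75 in TNFa, 19.0 ± 3.54 in Bufotenidine and 69.2 ± 7.55 in si. CXCL2 made up 33.9% ± 5.91 of this sum in medium, 10.9% ± 0.608 in TNFa, 12.96% ± 1.35 in Bufotenidine and 3.38% ± 1.22 in si. CXCL8 made up 25.9% ± 3.07 in medium, 44.3% ± 1.69 in TNFa, 44.4% ± 2.08 in Bufotenidine and 52.6% ± 6.94 in si. CXCL1 made up 30% ± 4.85 in medium, 42.1% ± 0.867 in TNFa, 40.4% ± 0.848 in Bufotenidine and 42.8% ± 5.83 in si.

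All 6 members held more copies of the decay-linked pentamer than the median gene. The pentamer AUUUA, the core of AU-rich elements, occurred 9 times in the 3′ UTR of the chosen CXCL8 transcript, 5 times in CXCL1, 10 times in CXCL2, 7 times in CXCL3, 11 times in CXCL5 and 6 times in CXCL6. The median of 19669 coding genes was 1. The share of these genes with at least as many was 11.3% for CXCL8, 22.9% for CXCL1 and 9.66% for CXCL2. It was 15.9% for CXCL3, 8.27% for CXCL5 and 19.2% for CXCL6. Per kilobase of 3′ UTR, CXCL2 held the most among the members with 13.9. CXCL3 had 10.4, CXCL8 7.19, CXCL1 7.08, CXCL5 5.51 and CXCL6 5.36, against a median of 1.18.

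By profile over the 12 libraries, the genes nearest to CXCL8 outside the 6 members were SAA2, CCL20 and LTB. The measure is the root mean square difference of log2(FPKM + 0.1), each gene taken relative to its own medium mean, over 11185 genes with a mean of at least 1 FPKM. It was 0.191 for SAA2, a serum amyloid A gene whose reads may be shared with its close copy, 0.329 for CCL20, which attracts cells bearing CCR6, and 0.525 for LTB, the lymphotoxin β chain. These 3 had means of 0.0185, 0.0570 and 0.0135 FPKM in medium, so their distances depend on the pseudocount. Among the members, CXCL1 lay at 0.373 from CXCL8, nearer than LTB. Outside the members, the genes nearest to CXCL1 were SAA2 at 0.372, CCL20 at 0.398 and the keratin gene KRT6B at 0.455. KRT6B had 1.85 FPKM in medium, 17.1 in TNFa, 24.2 in Bufotenidine and 40.6 in si.

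CXCL2 had other neighbours outside the members. They were NUAK2, a kinase gene, at 0.263, ADAM8, a membrane metalloprotease gene, at 0.264 and the pseudogene PCNPP3 at 0.269, whereas CXCL3 lay at 0.581, CXCL1 at 2.36 and CXCL8 at 2.67. NUAK2 had 4.67 FPKM in medium, 10.5 in TNFa, 10.4 in Bufotenidine and 11.2 in si, with a log2 change of 1.15 in TNFa against medium (adjusted p = 0.000241) and of 0.10 in si against TNFa (adjusted p = 0.671).

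The receptors of the ELR-positive chemokines were close to absent. CXCR1 and the scavenger receptor ACKR1 had 0 reads in all libraries, and CXCR2 had between 0 and 21 reads and a mean of at most 0.0880 FPKM in any group. The other chemokine genes of the cluster were likewise low. PF4 and PF4V1 had 0 reads, and PPBP had at most 6. None of these 6 genes was tested.

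Among the ELR-negative CXC chemokines, which mainly attract lymphocytes and other mononuclear cells, 3 of 8 passed the filter. In TNFa against medium 2 were higher, and in si against TNFa all 3 were higher (median log2 change 2.26). Over all genes tested, the median log2 change was -0.0020 in TNFa against medium and -0.0034 in si against TNFa, which is the background for the medians of this list and those that follow. Counts of called genes in these lists stand against 3.22% higher and 0.885% lower over all genes in the first comparison, and 9.35% higher and 8.08% lower in the second. CXCL10, a ligand of CXCR3, was listed at 0 in every medium library and had means of 0.412 FPKM in TNFa, 0.595 in Bufotenidine and 5.14 in si, with a log2 change of 3.41 in si against TNFa (adjusted p = 6.13e-05). CXCL16, which also exists as a membrane-bound chemokine, had means of 31.3 FPKM in TNFa, 35.2 in Bufotenidine and 45.05 in si, with 19.98 in medium, with a log2 change of 0.65 in TNFa against medium (adjusted p = 0.00285) and of 0.52 in si against TNFa (adjusted p = 0.00460).

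The list labelled granulocyte cytokines was a mixed one of CSF1, CSF2, CSF3, IL6, LIF and IL17C. Of these 6, the 5 tested all rose with TNF-α, with a median log2 change of 1.94. In si against TNFa 1 rose and 1 fell (median 0.37). CSF1, the macrophage growth factor, had means of 1.59 FPKM in medium, 4.41 in TNFa, 5.98 in Bufotenidine and 11.1 in si, and rose in both comparisons (adjusted p = 4.87e-05 and 6.13e-05). CSF2, the granulocyte-macrophage growth factor, had 0.438, 2.42, 3.84 and 2.40 FPKM, with a log2 change of 2.06 in TNFa against medium (adjusted p = 0.00762) and of 0.18 in si against TNFa (adjusted p = 0.793). LIF had 5.43, 14.5, 17.7 and 18.8 FPKM. The gene that fell in si was IL6, named after its values were seen, with 0.119, 1.08, 0.814 and 0.401 FPKM and a log2 change of -1.22 against TNFa (adjusted p = 0.0256).

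Of 13 NF-κB factors and regulators, 7 were higher in TNFa than in medium and none lower (median log2 change 1.30), and 6 were higher in si than in TNFa and none lower (median 0.33). TNFAIP3, which encodes the inhibitor A20, had 1.22 FPKM in medium, 28.3 in TNFa, 30.3 in Bufotenidine and 57.3 in si, with log2 changes of 4.43 and 1.02 in these 2 comparisons (adjusted p = 9.18e-09 and 0.000702). RELB, a subunit of the non-canonical pathway, rose from 0.821 to 16.3 FPKM with TNF-α and had 20.3 in si, a log2 change of 0.30 against TNFa (adjusted p = 0.156). NFKB2 changed by 2.40 and 0.55 (adjusted p = 1.26e-07 and 0.00435), and NFKBIA, which encodes the inhibitor IκBα, by 2.17 and 0.39 (adjusted p = 9.18e-09 and 0.00243). As given above, CXCL2 passed the test in TNFa against medium and did not in si against TNFa.

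Of 9 AP-1 and C/EBP factors, 3 were higher and 1 lower in TNFa (median 0.18), and 3 were higher and 1 lower in si against TNFa (median 0.27). The gene that fell with TNF-α was FOS, from 8.66 to 1.79 FPKM (log2 change -2.21, adjusted p = 5.45e-07). FOSL1 rose with TNF-α from 62.2 to 132 FPKM (log2 change 1.08, adjusted p = 0.00231) and fell in si to 78.1 (log2 change -0.75, adjusted p = 0.00873). ATF3 rose in both comparisons, by 0.40 (adjusted p = 0.00481) and 0.65 (adjusted p = 7.56e-05), and CEBPB rose with TNF-α by 0.47 (adjusted p = 0.0172).

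Of 12 genes that act on the stability of chemokine mRNA, 3 were higher in TNFa and none lower (median 0.13), and 2 were higher and 2 lower in si against TNFa (median -0.018), where 9.35% and 8.08% of all genes were, so that the count of 2 in 12 each way gives no result about the list. ZC3H12A, which encodes the endonuclease Regnase-1, had 9.34 FPKM in medium, 18.9 in TNFa, 25.6 in Bufotenidine and 46.0 in si and rose in both comparisons, by 1.01 (adjusted p = 0.000608) and 1.28 (adjusted p = 6.28e-05). Its relative ZC3H12C rose by 0.77 (adjusted p = 0.0159) and 1.22 (adjusted p = 0.000340). ZFP36L2, of the tristetraprolin family that binds AU-rich elements, rose by 0.39 with TNF-α (adjusted p = 0.0328) and fell in si, with a log2 change of -0.48 (adjusted p = 0.00374). ZFP36L1 had a log2 change of 0.36 with TNF-α (adjusted p = 0.0540). The other gene that fell in si was HNRNPD, also named AUF1 and named here after its values were seen, with a log2 change of -0.31 (adjusted p = 0.0467).

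Of 11 receptors whose ligands induce these chemokines, 9 passed the filter, 1 was higher in TNFa and 3 were higher in si against TNFa, with none lower (medians 0.030 and 0.35). The receptor for TNF-α itself, TNFRSF1A, had means between 58.2 and 65.7 FPKM in the 4 groups and was called in none of the comparisons with TNFa. IL17RC, a subunit of the interleukin 17 receptor, had 6.88 FPKM in TNFa and 8.77 in si (log2 change 0.35, adjusted p = 0.0358), whereas its partner IL17RA had a log2 change of 0.25 (adjusted p = 0.178) and IL1R1 of 0.42 (adjusted p = 0.121). TLR2, named after its values were seen, had 0.436 FPKM in medium, 0.975 in TNFa and 1.499 in si, and was the gene that rose with TNF-α (log2 change 1.01, adjusted p = 0.000610). It rose again in si (0.57, adjusted p = 0.00967). TLR3, also named after its values were seen, was higher in si than in TNFa (1.22, adjusted p = 0.00241). It was not called in TNFa against medium (0.26, adjusted p = 0.663).

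In Bufotenidine against TNFa, 0 of the 51 genes tested in these 6 lists were called by limma, although 16 had an unadjusted p under 0.05, and voom on the recovered reads called 3. Over all 18079 genes tested, 3632 had an unadjusted p under 0.05 and voom called 236. The smallest limma adjusted p in the lists was 0.0531, for FOS (log2 change 0.79), picked after its values were seen. The median log2 change of the 9 AP-1 and C/EBP factors was 0.14, against 0 over all genes. The comparisons with TNFa share its 3 libraries, so their values for these genes are not independent.

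**Figure D5:**
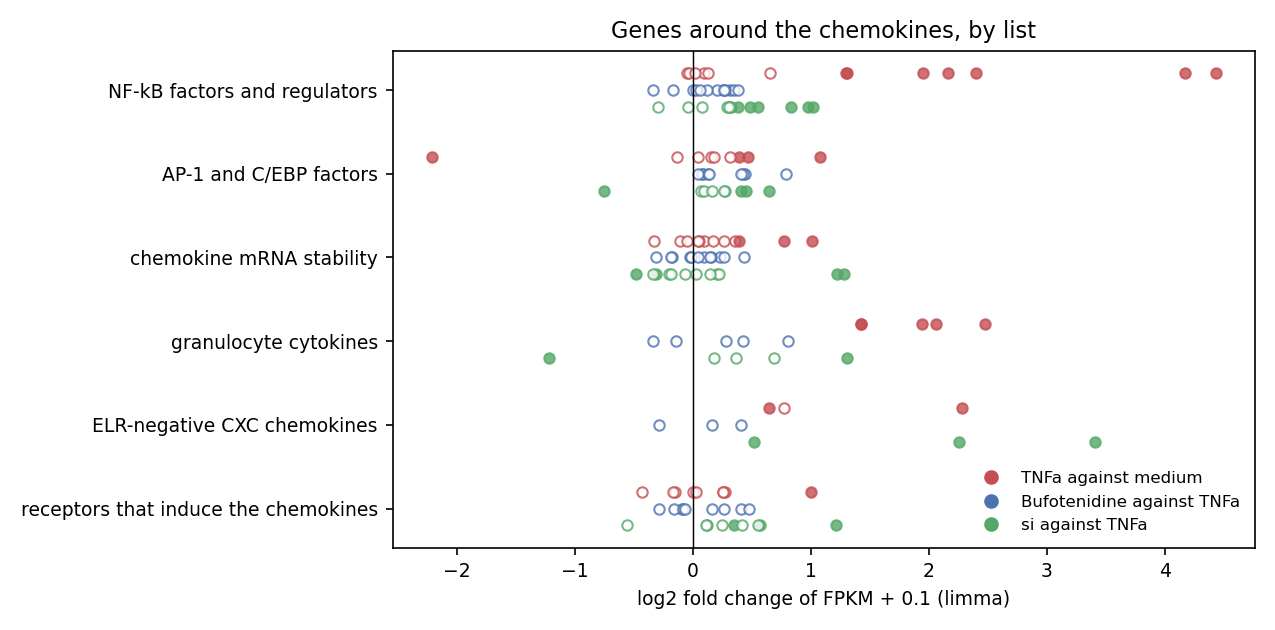
Log2 fold change of FPKM + 0.1 from limma (horizontal axis) for each gene tested in 6 lists, in TNFa against medium, Bufotenidine against TNFa and si against TNFa, filled where the adjusted p was under 0.05. Filled points for TNF-α reach 4.43 among the NF-κB genes, and none of the points for Bufotenidine against TNFa is filled.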

How the data were processed

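RNA of NCM460 cells was sequenced from poly(A)-selected NEBNext Ultra libraries. Per the submitters' processing notes, CASAVA 1.8, HISAT2 2.0.4, HTSeq 0.9.1 and hg38 were used; strandedness and the scaling of the FPKM are not given in the sources used here. The deposited table, made by the authors, holds the FPKM of each gene in each library and the gene length. Gene positions equalled those of GENCODE 29 for 99.9% of genes. Depth (31008429 to 37624399 reads) came from whole reads recovered from the FPKM steps; the floor of 3 reads covers counting error only.

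In R 4.3.3, a model was fitted with limma 3.58.1 to log2(FPKM + 0.1) for 18079 genes whose FPKM averaged at least 0.1, with 1 mean per group, a mean-variance trend and 8 residual degrees of freedom. All p-values were two-sided and adjusted by Benjamini-Hochberg over the genes tested, and calls were made at an adjusted p under 0.05. Fold changes on this scale understate changes of low genes. Exact permutation tests compared 3 libraries with 3 (smallest p = 0.1). The alternatives are given at the end.

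The members and the gene lists were chosen with earlier results of these data known. Named were all members, the 3 nearest profiles of each member that averaged at least 1 FPKM, and up to 4 genes per list with the largest log2 change in any of the 3 comparisons with medium or TNFa, among genes that averaged at least 1 FPKM. Sequence was taken from RefSeq promoters (GRCh38.p14), and similarity and AUUUA counts from GENCODE 29 transcripts with Biopython 1.88 under Python 3.11.15.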

Additional observations from a re-analysis of the deposited data

How the results depend on the processing

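Each member value was recomputed under 11 alternative settings (pseudocounts of 1 and 0.01, no filter, a filter at a mean FPKM of 1, median of ratios, quantile normalization, TPM, no trend in eBayes, the replicate block, voom on recovered reads, and a fit restricted to the 2 groups of a comparison) and without each of the 6 libraries of a comparison. Of 268 recomputed member values, 253 kept their direction and their side of the threshold. CXCL8 and CXCL1 were called in TNFa against medium, si against TNFa and si against Bufotenidine under every setting run and without any 1 library. Log2 changes for CXCL8 in TNFa against medium ranged from 2.59 with the pseudocount of 1 to 3.73 over the settings.

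The number of members called ranged over the settings from 2 to 3 in TNFa against medium, stayed at 0 in Bufotenidine against TNFa and at 2 in si against TNFa, and ranged from 2 to 3 in si against Bufotenidine. Signs changed in 5 values, none of them called. CXCL8 in Bufotenidine against TNFa ranged from -0.32 to 0.023 with libraries left out, the last without TNFa library 3. CXCL2 in si against TNFa was at 0.015 as TPM and ranged from -0.25 to 0.18 with libraries left out, positive without TNFa library 3 (0.13) or si library 2 (0.18). In si against Bufotenidine it ranged from -0.34 to 0.089, positive without si library 2. CXCL3 lost its call in si against Bufotenidine with no filter (adjusted p = 0.0910), quantile normalization (0.0514), the fit to only the 2 groups (0.0588), the replicate block (0.0582) and without 5 of the 6 libraries (up to 0.121). The causes were not tested.

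With the replicate block, 3, 0, 2 and 2 members were called in the 4 comparisons in the order above. Same-numbered libraries correlated between -0.052 and 0.038 in their deviations from the group means, and 1 of 3 correlated best with its own number in each comparison, so the numbers were not taken as pairs. Over all genes, 742 were called in TNFa against medium and 392 in the fit to only those 2 groups, and in Bufotenidine against TNFa 7 were called, against 1 with eBayes without trend and 911 in the fit to only the 2 groups. Depth limits CXCL3, CXCL5 and CXCL6, with at most 69, 10 and 0 reads per library.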
